A study of Mus musculus with 5 samples.

Results

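The cyclins other than the D-type, and the cyclin-dependent kinases (CDKs) other than CDK4 and CDK6, form a family of 36 listed genes, chosen by name: 21 cyclins and 15 kinases. The platform annotation paired 35 of them with a probe set of their own on the array, out of 19938 genes tested, and Ccnb1 is not analysed here. Each gene is represented by the probe set with the highest mean. The glands came from 3 mice that carry the MMTV-rtTA transgene together with a cyclin D1 transgene (rtTA/CCND1) and from 2 control mice that carry rtTA alone, all female FvB/N animals aged 8 weeks, with 1 array of whole-gland total RNA per mouse. The study asks which genes respond in the gland when cyclin D1 is switched on for a short time. rtTA is a transactivator that switches on a responder gene in the presence of doxycycline, and the MMTV promoter that drives it is active mainly in mammary epithelium. The treatment protocol gives 7 days of doxycycline, words this for a "KE" mutant of cyclin D1, and does not say whether the rtTA mice received the drug. All groups share the rtTA transgene.

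A CDK is inactive until it binds a cyclin. Cyclins E and A activate CDK2 at the start of and through DNA replication, and cyclins A and B activate CDK1 for mitosis. A further set serves transcription: CDK7 with cyclin H and CDK9 with cyclin T phosphorylate the tail of RNA polymerase II, CDK12 and CDK13 with cyclin K keep it elongating, CDK8 and CDK19 with cyclin C sit on the Mediator complex, and cyclins L work with CDK11 in splicing. The remaining, atypical members have roles in neurons, membranes, cilia or stress. In the mammary gland cyclin D1 acts upstream of cyclins E and A through the RB protein and E2F factors, and most family members are regulated in protein level and binding as well as in mRNA.

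The members that passed the test were all transcriptional. Of the 13 transcriptional members 4 were higher in cyclin D1 glands and 0 lower, and all 13 had positive log2 fold changes, as did 44.3% of all genes tested. Of 9 measured cell-cycle members and 13 atypical members 0 passed in either direction. The test was limma with Benjamini-Hochberg adjustment over all 19938 genes and a threshold of 0.05. Over all genes 5.38% were called higher and 0.687% lower, against 11.4% and 0% of the 35 members. Log2 fold changes are cyclin D1 minus control throughout, and their median was 1.1 over the transcriptional members, 0.31 over the cell-cycle members, -0.05 over the atypical members and -0.05 over all genes tested. Before adjustment, 13 members were higher with p under the same threshold, against 16.2% of all genes, and 8 of these were transcriptional. The difference between the groups of members was not tested.

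Expression level moved with these counts. The cyclin D1 arrays had a wider spread of values (SD across genes 1.2 to 1.38) than the control arrays (0.735 and 0.926), and the median log2 fold change was -0.29 in the dimmest decile of genes by mean level. Control 1 stood apart from the other arrays: its values correlated across genes at 0.779 with control 2 and at 0.701 to 0.743 with the cyclin D1 arrays, whereas control 2 correlated with these at 0.841 to 0.884. Of all genes, 1597 to 2120 exceeded a log2 value of 5 on the cyclin D1 arrays, against 305 on control 1 and 712 on control 2. Without control 1, Cdk13, Cdk12, Ccnl1 and Ccnh differed by 2.60, 1.06, 1.36 and 1.44, sizes that rest on control 2 alone. With cyclin D1 replicate 1 or cyclin D1 replicate 2 left out, limma called 0 of all genes. With cyclin D1 replicate 3 left out, Cdk12, Ccnl1 and Ccnh did not pass. In the brightest decile 36% of genes were called higher, and the median log2 fold change was 1.59. That decile held 10 of the 35 members, 6 of them transcriptional, and 4 of the 10 were called (40%), a share near that of the decile itself. Of those 10 members, 5 lay above the decile's median and 5 below. Because of this spread, fold changes after the 5 arrays were quantile-normalized again ("renormalized") stand beside the deposited ones. After renormalization 1 of the 35 members passed, against 0.256% of all genes higher and 0.105% lower, and the medians were 0.55, 0.25 and -0.05 for transcriptional, cell-cycle and atypical members. Positive values then stood in 11 of the 13 transcriptional members, against 47.8% of all genes. The part of the array spread in these calls was not tested.

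**Figure D1:**
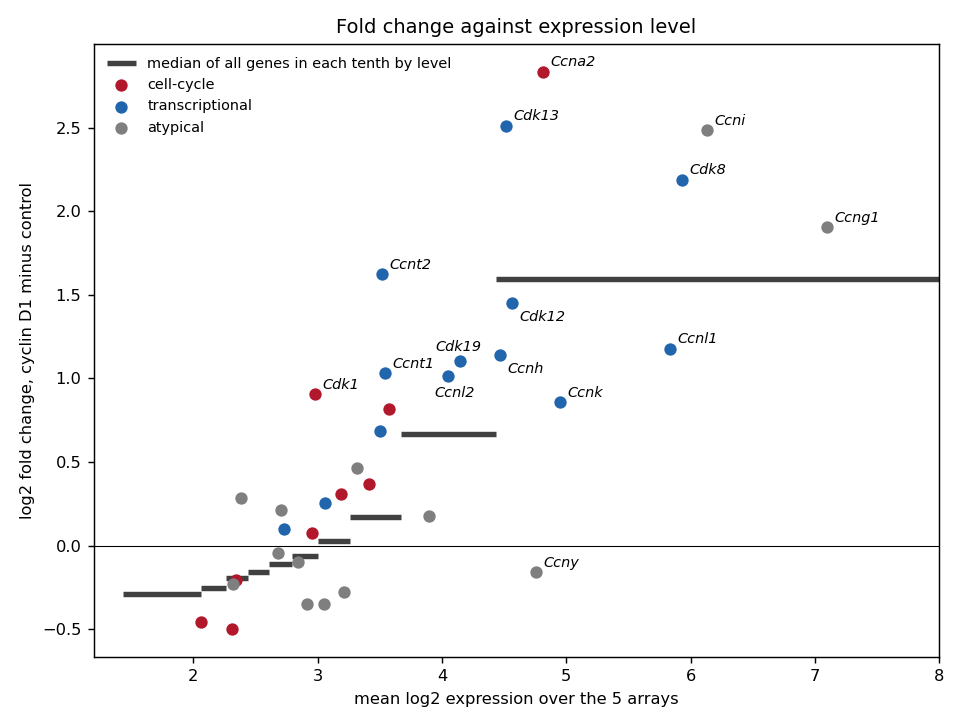
Fold change (log2, cyclin D1 minus control, vertical axis) against mean log2 expression over the 5 arrays (horizontal axis) for the 35 members, coloured by group, with the median of all genes in each decile by level as black bars (the brightest decile runs past the axis limit). In the brightest decile, with a median of 1.59, Ccna2, Cdk13, Ccni, Cdk8 and Ccng1 lie above the bar and Cdk12, Ccnl1, Ccnh, Ccnk and Ccny below it.

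Markers of the gland's cell types also moved. In whole tissue, fewer cells of a type and less RNA per cell cannot be told apart. Of 10 markers of dividing cells 3 were higher, with a mean level per array of 4.22 to 5.13 in cyclin D1 glands against 3.14 to 3.36 in controls. Luminal epithelial markers averaged 5.14 to 5.62 in cyclin D1 glands against 3.66 to 3.80 in controls, with 3 of 6 higher. Milk genes, which mark the secretory epithelium of this tissue, averaged 10.8 to 11.4 against 8.05 to 9.07, with 2 of 4 higher. Myoepithelial markers averaged 4.18 to 4.58 against 3.30 to 3.78, with 1 of 5 higher. Of the markers of adipocytes (5), lymphocytes (6), macrophages (4), endothelium (4) and ciliated cells (3), 0 passed. These counts stand beside 5.38% of all genes called higher, and 36% in the brightest decile. Adipocyte markers averaged 5.01 to 6.30 in cyclin D1 glands against 5.49 to 5.89 in controls, and macrophage markers 3.76 to 4.88 against 3.37 to 3.55. Lymphocyte markers averaged 2.58 to 3.52 in cyclin D1 glands against 3.01 to 3.02 in controls, and endothelial markers 3.24 to 3.63 against 2.87 to 3.34. In each of these lists, 0 markers lay at or below the floor on all 5 arrays. After renormalization 1 of the 10 markers of dividing cells passed and 0 of the luminal, milk and myoepithelial markers. The median differences of the luminal list were 1.40 as deposited and 0.63 renormalized, of the milk list 2.30 and 1.06, of the adipocyte list -0.06 and -1.01, and of the macrophage list 0.76 and 0.06. The part of these cell types in the cyclin and CDK differences was not tested. Ccnd1 itself read 4.63, 4.92 and 4.0 in cyclin D1 glands and 4.04 and 3.49 in controls, overlapping values whose difference in log2 units was 0.75 with an SE of 0.32 (limma adjusted p = 0.218). After renormalization the sign turned, to -0.14. No source used here says whether its probe set reads the transgene.

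**Figure D2:**
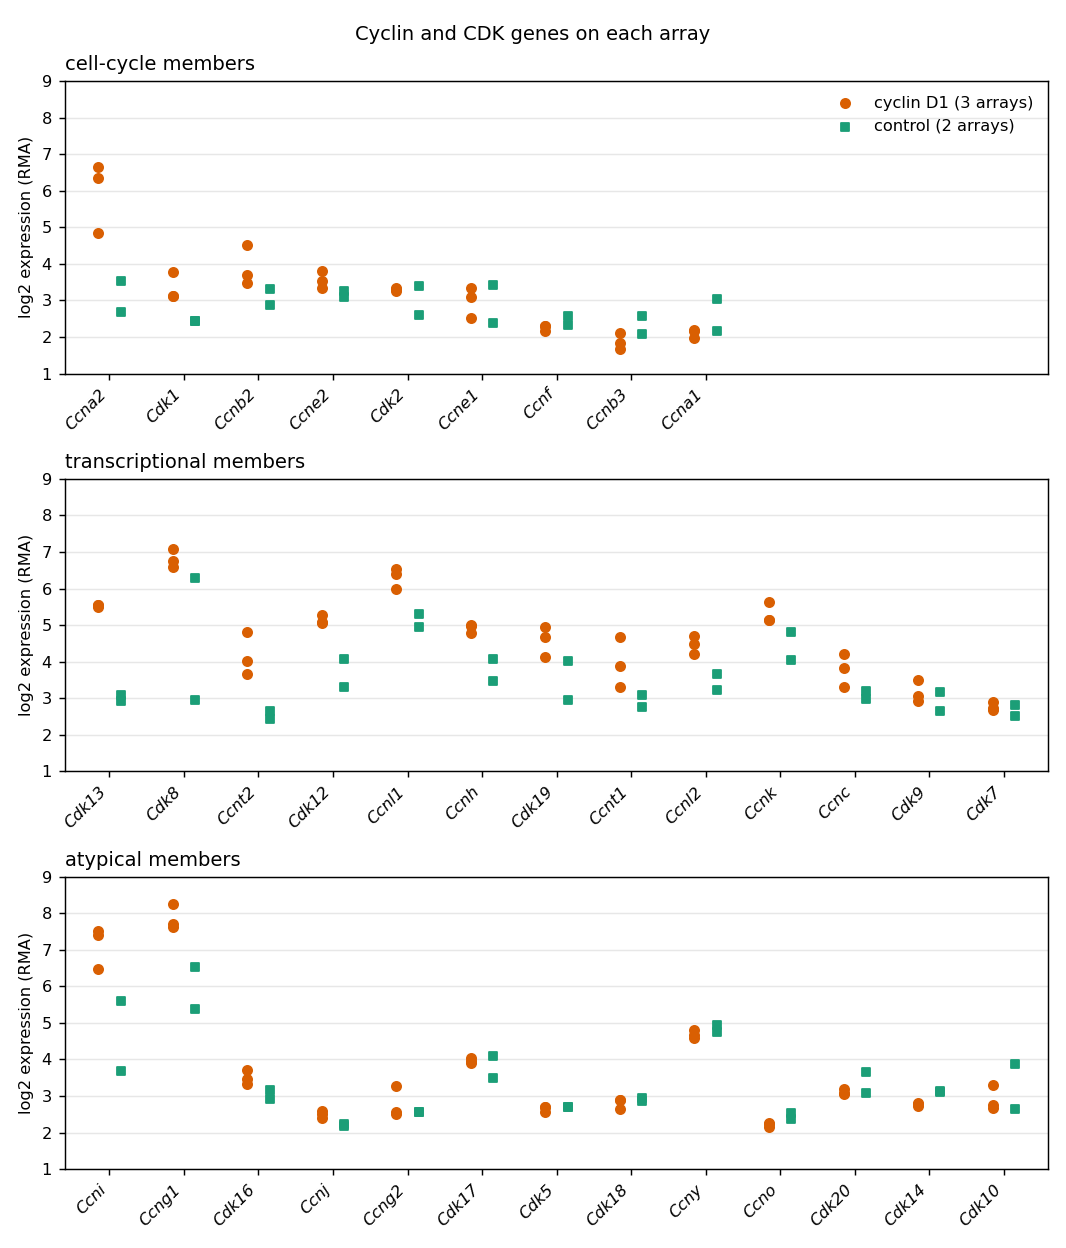
Log2 expression (RMA, vertical axis) of each member on the 3 cyclin D1 arrays (circles, left) and the 2 control arrays (squares, right), in a panel for each group and ordered by fold change. The circles lie above both squares in 11 of 13 transcriptional, 4 of 9 cell-cycle and 4 of 13 atypical members, against 22.4% of all genes. After renormalization these counts were 5, 4 and 1. The 3 brightest deciles held 11 transcriptional, 3 cell-cycle and 5 atypical members.

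Among the kinases that drive elongation, Cdk13 had the clearest separation. CDK13 is a partner of cyclin K that phosphorylates the tail of RNA polymerase II. Cdk13 read 5.49, 5.54 and 5.55 in cyclin D1 glands, against 3.10 and 2.92 in controls. The 3 cyclin D1 values lay close to one another and far above both controls. Cdk13 was 5.71-fold higher (log2 2.51, SE 0.13, limma adjusted p = 0.0102), and it was the member that also passed after renormalization (log2 1.99, adjusted p = 0.0434). It passed under 12 of 15 alternative settings. The exceptions were the fits without control 1, cyclin D1 replicate 1 or cyclin D1 replicate 2. Cdk13 differed there by 2.60 (on control 2 alone), 2.53 (limma adjusted p = 0.0915) and 2.51 (0.0639). With either of these cyclin D1 arrays left out, limma called 0 of all genes.

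Cdk12, its close relative, is best known for sustaining the expression of long DNA repair genes. It read 5.05, 5.28 and 5.09 in cyclin D1 glands, against 3.31 and 4.08 in controls, and the groups did not overlap. The gene was 2.73-fold higher (log2 1.45, SE 0.25, limma adjusted p = 0.0395). After renormalization the log2 difference was 0.70 (adjusted p = 0.307). A second and dimmer Cdk12 probe set read 2.49, 2.49 and 2.28 in cyclin D1 glands against 2.49 and 3.38 in controls. The probe sets thus disagree in direction, and their mean differed by 0.47. For the dimmer probe set, control 1 lay below that array's mean of olfactory receptor genes (2.52), a rough floor, so its size is inexact. Ccnk, which encodes the cyclin that both kinases need, read 5.13, 5.63 and 5.13 against 4.06 and 4.82. Its log2 difference of 0.86 (SE 0.29, limma adjusted p = 0.143) did not pass and became -0.44 after renormalization.

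The cyclins L bind CDK11 and act in pre-mRNA splicing. Ccnl1 read 6.53, 6.41 and 5.98 in cyclin D1 glands, against 5.31 and 4.95 in controls. All cyclin D1 values lay above both controls, a 2.26-fold higher level (log2 1.18, SE 0.22, limma adjusted p = 0.0468). The sign did not hold after renormalization, where the difference was -0.56 (adjusted p = 0.474). For Ccnl2, the values of 4.48, 4.69 and 4.21 in cyclin D1 glands lay above 3.23 and 3.65 in controls, and their difference of 1.02 (SE 0.21, limma adjusted p = 0.0577) missed the threshold. Renormalized, Ccnl2 differed by 0.55.

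CDK7 with cyclin H forms the kinase of transcription factor TFIIH, which is also the CDK-activating kinase of the cell cycle. Ccnh read 5.0, 4.98 and 4.78 in cyclin D1 glands, against 4.08 and 3.48 in controls, without overlap. It was 2.2-fold higher (log2 1.14, SE 0.22, limma adjusted p = 0.0468), and 0.15 higher on the renormalized log2 scale (adjusted p = 0.879). Renormalized, Ccnh read 4.57, 4.43 and 4.58 in cyclin D1 glands against 5.16 in control 1 and 3.60 in control 2. Renormalized without control 1 the difference was 1.05, a size that rests on control 2 alone. The kinase gene Cdk7 read 2.67, 2.90 and 2.73 against 2.82 and 2.52, overlapping levels in decile 5 of mean expression. The Cdk7 difference was 0.10 (95% interval -0.31 to 0.50), and a second probe set gave 0.09. The difference between the cyclin's and the kinase's fold change was not tested.

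CDK9 with cyclin T1 or T2 makes P-TEFb, which releases paused RNA polymerase II. Ccnt2 read 4.02, 4.81 and 3.67 in cyclin D1 glands, against 2.43 and 2.65 in controls. The groups were apart, yet the difference of 1.62 (SE 0.35, limma adjusted p = 0.0611) did not pass, and it was 1.46 after renormalization (adjusted p = 0.0661). Olfactory receptor genes, which serve as a rough floor, averaged 2.52 on the array of control 1, above its Ccnt2 value, so the size is inexact. Ccnt1 read 3.31, 4.67 and 3.89 against 3.10 and 2.75, a difference of 1.03 (SE 0.41, limma adjusted p = 0.191) with wide scatter among the cyclin D1 mice. Cdk9 overlapped between the groups, with 3.49, 3.07 and 2.94 in cyclin D1 glands, 2.65 and 3.17 in controls, and a difference of 0.25 (95% interval -0.37 to 0.87).

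Of the Mediator kinases, Cdk8 was set apart by 1 control. Cdk8 read 6.60, 7.08 and 6.75 in cyclin D1 glands, against 2.95 in control 1 and 6.29 in control 2. Its log2 difference of 2.19 (SE 0.95, limma adjusted p = 0.218) was 0.52 without control 1 and 3.86 without control 2, where it passed (adjusted p = 0.0301). The paralog Cdk19 showed the same ordering of the controls, with 4.66, 4.96 and 4.14 in cyclin D1 glands against 2.95 and 4.02. The difference for Cdk19 was 1.1 (SE 0.39, limma adjusted p = 0.157), or 0.57 without control 1. Ccnc, the cyclin of both kinases, read 4.21, 3.82 and 3.30 against 3.20 and 2.99, a difference of 0.68 (SE 0.29, limma adjusted p = 0.209) with cyclin D1 replicate 3 close to control 1.

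The promoters of the transcriptional members that passed are shown with any matches to the sequence elements by which cell-cycle genes are usually recognised. These elements are the CCAAT box, bound by NF-Y, the CHR element, bound by LIN54 of the DREAM complex, which represses cell-cycle genes in resting cells, and E2F sites. All were searched on both strands. The CHR was searched as TTTGAA and in its variant TTCGAA together with the form TTTAAA. The E2F site was searched as TTCCCGC and in its variant TTGGCGC together with the form TTCGCGC. The windows are those of RefSeq on GRCm38.p6, each 300 bases long and spanning the transcription start, 5′ to 3′ on the gene's strand, with matches in capitals. Positions count from the start and are negative before it. Of the 13 transcriptional members 11 had a window. Ccnh had no entry.
Cdk13, chr13:17805048-17805347, minus strand: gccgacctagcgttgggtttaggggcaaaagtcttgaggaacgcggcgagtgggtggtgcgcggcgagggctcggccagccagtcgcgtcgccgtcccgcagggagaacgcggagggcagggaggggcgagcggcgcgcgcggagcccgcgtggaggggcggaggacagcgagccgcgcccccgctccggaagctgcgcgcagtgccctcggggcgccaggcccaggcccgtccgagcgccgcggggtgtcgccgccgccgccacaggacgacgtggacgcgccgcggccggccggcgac
Cdk12, chr11:98203055-98203354, plus strand: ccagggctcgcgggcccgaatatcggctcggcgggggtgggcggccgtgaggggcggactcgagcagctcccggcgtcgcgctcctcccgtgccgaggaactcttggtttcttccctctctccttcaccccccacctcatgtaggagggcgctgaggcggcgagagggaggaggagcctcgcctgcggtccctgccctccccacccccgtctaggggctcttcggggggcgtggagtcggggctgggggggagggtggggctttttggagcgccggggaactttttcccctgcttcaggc
Ccnl1, chr3:65958200-65958499, minus strand: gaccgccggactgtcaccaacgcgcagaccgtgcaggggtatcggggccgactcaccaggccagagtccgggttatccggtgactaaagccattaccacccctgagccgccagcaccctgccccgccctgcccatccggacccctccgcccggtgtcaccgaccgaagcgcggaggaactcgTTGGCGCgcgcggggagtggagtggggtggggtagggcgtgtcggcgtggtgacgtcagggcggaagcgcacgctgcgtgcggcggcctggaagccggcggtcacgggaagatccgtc
Of these, Cdk13 and Cdk12 held 0 matches and Ccnl1 held a single E2F match, from -68 to -62. Over the 11 transcriptional promoters 2 held a CHR match, 5 a CCAAT box and 2 an E2F match. Among all 32851 promoters of the same length the shares were 28.8% for CHR, 37.4% for CCAAT and 8.07% for E2F. The share with none of the 3 kinds was not counted, so the lack of matches in Cdk13 and Cdk12 is not read as a trait of these genes.

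The cell-cycle members with the largest differences were Ccna2 and Cdk1, and neither passed. Cyclin A2 partners CDK2 in S phase and CDK1 in late G2. Ccna2 read 4.86, 6.34 and 6.64 in cyclin D1 glands, against 2.68 and 3.54 in controls. The groups were separate, with a spread of 0.95 (SD, n = 3) among the cyclin D1 mice, and cyclin D1 replicate 1 stood lowest of the 3. The log2 difference of 2.83 (SE 0.59, limma adjusted p = 0.0574) was the largest of the 35 members on the deposited scale, and 2.26 after renormalization (adjusted p = 0.136). Leaving out any 1 array gave differences of 2.40 to 3.38. Ccna2 passed under 4 of 15 alternative settings. Median centring of each array gave a limma adjusted p of 0.0449, and leaving out dimmer genes 0.0377. Raising low values to the olfactory receptor mean gave 0.0492, and the replicate number as a block 0.0278. Cyclin D1 replicate 3 has no same-numbered control, so the block takes it out of the difference. The gene did not pass with array weights (limma adjusted p = 0.209), all probe sets (0.0801) or any 1 cyclin D1 array left out.

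Cdk1, the mitotic kinase, read 3.11, 3.78 and 3.12 in cyclin D1 glands, against 2.43 in both controls. The control values were equal to the last deposited digit, as they were for 293 of the 19938 genes, so they carry no estimate of the spread between the control mice. The level differed by 0.91 (SE 0.24, limma adjusted p = 0.0939), or 0.94 after renormalization (adjusted p = 0.0993). Leaving out 1 array gave 0.69 to 1.02. Control 1 lay at or below the floor for Cdk1, so the size is inexact. Of the cyclin B genes, Ccnb2, a mitotic cyclin, read 3.48, 4.53 and 3.70 against 2.87 and 3.30, a difference of 0.81 (SE 0.35, limma adjusted p = 0.217). Ccnb3, a cyclin known mainly from meiosis, read 1.85, 1.66 and 2.12 against 2.57 and 2.09. It lay at or below the floor on all 3 cyclin D1 arrays, so its difference is given as a bound of -0.25. The fitted difference was -0.45 (SE 0.22, limma adjusted p = 0.261). Control 2 lay below the floor too. The floor was 1.97 to 2.24 on the cyclin D1 arrays and 2.52 and 2.38 on the controls, so the sign for Ccnb3 is not read as a direction.

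The promoters of Cdk1 and Ccnb2 are shown for comparison with those above, in the same marking.
Cdk1, chr10:69352863-69353162, minus strand: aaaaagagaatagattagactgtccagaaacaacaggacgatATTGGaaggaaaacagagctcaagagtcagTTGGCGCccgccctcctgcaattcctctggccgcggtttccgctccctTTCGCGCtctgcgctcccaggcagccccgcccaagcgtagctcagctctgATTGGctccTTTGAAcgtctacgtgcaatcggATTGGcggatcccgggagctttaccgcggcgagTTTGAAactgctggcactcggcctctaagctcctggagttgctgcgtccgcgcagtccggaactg
Ccnb2, chr9:70421505-70421804, minus strand: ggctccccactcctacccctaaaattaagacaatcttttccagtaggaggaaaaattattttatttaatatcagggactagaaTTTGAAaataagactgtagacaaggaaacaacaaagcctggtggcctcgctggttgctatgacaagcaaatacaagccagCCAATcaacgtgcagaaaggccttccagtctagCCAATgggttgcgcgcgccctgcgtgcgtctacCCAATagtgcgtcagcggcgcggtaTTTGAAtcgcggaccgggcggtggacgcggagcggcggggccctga
Cdk1 held CHR matches from -71 to -66 and from -15 to -10, E2F matches beginning at -178 and -130, and 3 CCAAT boxes. Ccnb2 held CHR matches beginning at -167 and at position 5 and 3 CCAAT boxes at -87, -54 and -21, with 0 E2F matches. Of the 8 cell-cycle members with a RefSeq window, Ccnb1 among them, 6 held a CHR match, 6 a CCAAT box and 4 an E2F match, and Cdk1 and Ccnb1 held all 3 kinds, as did 0.563% of all promoters. In Ccnb1 the E2F match overlaps a CCAAT box. A match is only a run of letters and says nothing of binding in these glands. Of the 10 atypical members with a window, 2 held a CHR match, 5 a CCAAT box and 0 an E2F match.

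Of the cyclins E, which activate CDK2 at the G1 to S transition, Ccne2 read 3.34, 3.53 and 3.81 in cyclin D1 glands, against 3.10 and 3.27 in controls. These values were close but did not overlap, with a log2 difference of 0.37 (95% interval -0.09 to 0.84, limma adjusted p = 0.270). Ccne1 read 2.53, 3.09 and 3.34 against 3.42 and 2.39, so that the controls bracketed the cyclin D1 mice. Its difference of 0.08 (95% interval -0.90 to 1.05) changed sign under 5 of 15 settings, renormalization among them. Cdk2, the kinase of both, read 3.33, 3.26 and 3.35 in cyclin D1 glands, against 2.61 in control 1 and 3.39 in control 2. The Cdk2 difference was 0.31 (SE 0.25, limma adjusted p = 0.454) with all arrays, -0.08 without control 1, and 0.70 without control 2, where it passed (limma adjusted p = 0.0408).

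Ccna1, a cyclin of the male germ line, and Ccnf, a subunit of an SCF ubiquitin ligase that lends its name to the F-box, were dim members, in decile 3 of mean expression. Ccna1 read 1.97, 2.16 and 2.19 in cyclin D1 glands, against 3.04 and 2.18 in controls. Control 1 was the higher, and the difference was -0.50 (SE 0.28, limma adjusted p = 0.310) with it, -0.07 without it and -0.93 without control 2 (adjusted p = 0.0459). Because 2 of the 3 cyclin D1 values and control 2 lay at or below the floor, these sizes are inexact and the pass rests on values not above it. Ccnf read 2.16, 2.30 and 2.31 against 2.34 and 2.59, a difference of -0.20 (95% interval -0.57 to 0.17). Control 1 lay below the floor for Ccnf, so this size is inexact too. Of the 9 measured cell-cycle members, 4 had a control at or below the floor.

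**Figure D3:**
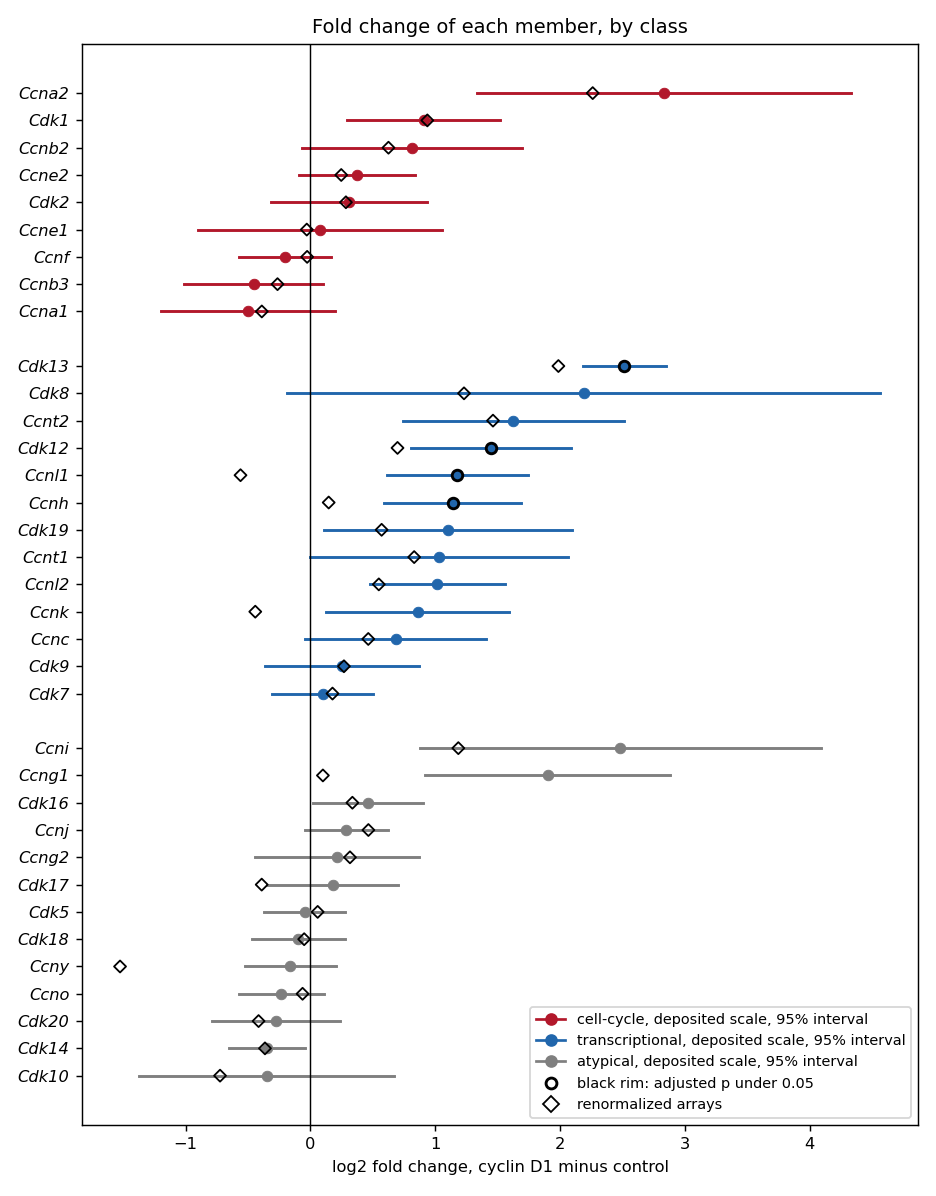
Log2 fold change, cyclin D1 minus control (horizontal axis), of each measured member, with the 95% interval of the limma fit on the deposited scale (coloured by group, black rim where the adjusted p was under 0.05) and the renormalized value (open diamonds). The rims mark Cdk13, Cdk12, Ccnl1 and Ccnh, and the diamonds of Ccne1, Ccnl1, Ccnk, Cdk17 and Cdk5 lie on the other side of 0 from their points.

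Of the 3 atypical cyclins in the brightest decile, Ccng1 and Ccni had positive differences. Cyclin G1 is a target of p53, and cyclin I is known mainly from post-mitotic cells. Ccng1 read 7.70, 8.25 and 7.64 in cyclin D1 glands, against 5.39 and 6.53 in controls. Its difference of 1.90 (SE 0.39, limma adjusted p = 0.0550) lay just outside the threshold and was 0.10 after renormalization (adjusted p = 0.792), with overlapping groups. It passed without control 2 (2.48, limma adjusted p = 0.0404) and did not without control 1 (1.33, adjusted p = 0.144).

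Ccni read 7.4, 7.52 and 6.46 in cyclin D1 glands, against 3.68 and 5.61 in controls. The difference was 2.48 (SE 0.64, limma adjusted p = 0.0849), and 1.18 after renormalization. Without control 2 it was 3.45 and passed (limma adjusted p = 0.0490), and without control 1 it was 1.52 (adjusted p = 0.215). The second Ccni probe set had tighter controls, with 6.15, 6.09 and 5.62 in cyclin D1 glands against 3.79 and 4.08, and the mean of both probe sets passed (limma adjusted p = 0.0409).

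Ccny was the member of the brightest decile with a negative difference. Cyclin Y is a membrane-anchored cyclin that activates CDK14 and CDK16. Ccny read 4.68, 4.59 and 4.81 in cyclin D1 glands, against 4.76 and 4.95 in controls. The groups overlapped, with a difference of -0.16 (95% interval -0.53 to 0.21), in the decile of genes whose median was 1.59. Its renormalized values were 4.32, 4.15 and 4.62 in cyclin D1 glands against 6.19 and 5.58 in controls, a difference of -1.52 (SE 0.25, limma adjusted p = 0.0630). Renormalized without control 1 the difference was -1.36, a size that rests on control 2 alone.

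The kinases that cyclin Y activates had small differences. Cdk14, of the PFTAIRE kinases and known from Wnt receptor phosphorylation, read 2.79, 2.74 and 2.80 in cyclin D1 glands, against 3.12 and 3.13 in controls. These were tight, separate values with a difference of -0.35 (SE 0.12, limma adjusted p = 0.152), which stayed between -0.36 and -0.28 over all 15 settings. Cdk16, of the PCTAIRE kinases, read 3.47, 3.71 and 3.32 against 3.16 and 2.92, a difference of 0.46 (SE 0.18, limma adjusted p = 0.173). Its relatives Cdk17 and Cdk18 overlapped between groups, with differences of 0.18 (95% interval -0.34 to 0.70) and -0.10 (95% interval -0.47 to 0.27).

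Cdk5, a kinase of neurons that uses non-cyclin activators, read 2.71 on 4 of the 5 arrays and 2.57 on cyclin D1 replicate 3. Values equal on at least 4 arrays occurred in 151 of all genes, and the difference of -0.05 (95% interval -0.37 to 0.28) carries little information. Ccng2, a relative of Ccng1 that is linked to cell-cycle exit, likewise read 2.57 on 3 arrays, with 3.27 on cyclin D1 replicate 1 and 2.52 on cyclin D1 replicate 3. Ccnj read 2.40, 2.58 and 2.51 in cyclin D1 glands, against 2.19 and 2.23 in controls, which both lay below the floor. Its difference is therefore given as a bound of 0.04. The fitted difference of 0.29 (95% interval -0.05 to 0.62, limma adjusted p = 0.241) did not pass. Ccno, a cyclin of multiciliated cells, read 2.24, 2.16 and 2.26 against 2.54 and 2.36, a difference of -0.23 (SE 0.13, limma adjusted p = 0.324). Control 2 lay below the floor for Ccno, and the floor was higher on the control arrays than on the cyclin D1 arrays, so the size is inexact. Markers of ciliated cells, 3 in all, averaged 2.41 to 2.52 in cyclin D1 glands against 2.58 to 2.90 in controls.

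Cdk10 and Cdk20 overlapped between the groups on the deposited scale. Cdk10, whose product limits ETS2, read 2.68, 2.75 and 3.30 in cyclin D1 glands, against 3.87 and 2.65 in controls. Its difference of -0.35 (95% interval -1.37 to 0.67) was 0.26 without control 1, and a second probe set gave 0.07. Cdk20, a kinase linked to cilia, read 3.08, 3.05 and 3.18 against 3.09 and 3.66, a difference of -0.27 (SE 0.20, limma adjusted p = 0.423). It was -0.56 without control 1 and 0.01 without control 2. Renormalized, the cyclin D1 values of 3.09, 3.06 and 3.13 lay below the controls at 3.15 and 3.87. With control 1 also left out the difference was -0.86, a size that rests on control 2 alone.

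All 3 cyclin D1 values lay above both controls in 19 of the 35 members (54.3%) and below them in 3 (8.57%), against 22.4% and 22.6% of all genes. The 19 were 11 transcriptional, 4 cell-cycle and 4 atypical members. After renormalization, 10 members lay above and 4 below, against 20.1% and 19.5% of all genes. The 10 then comprised 5 transcriptional, 4 cell-cycle and 1 atypical members. Cell-cycle members kept their count of 4 on both scales, and these were Ccna2, Ccnb2, Ccne2 and Cdk1 each time.

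**Figure D4:**
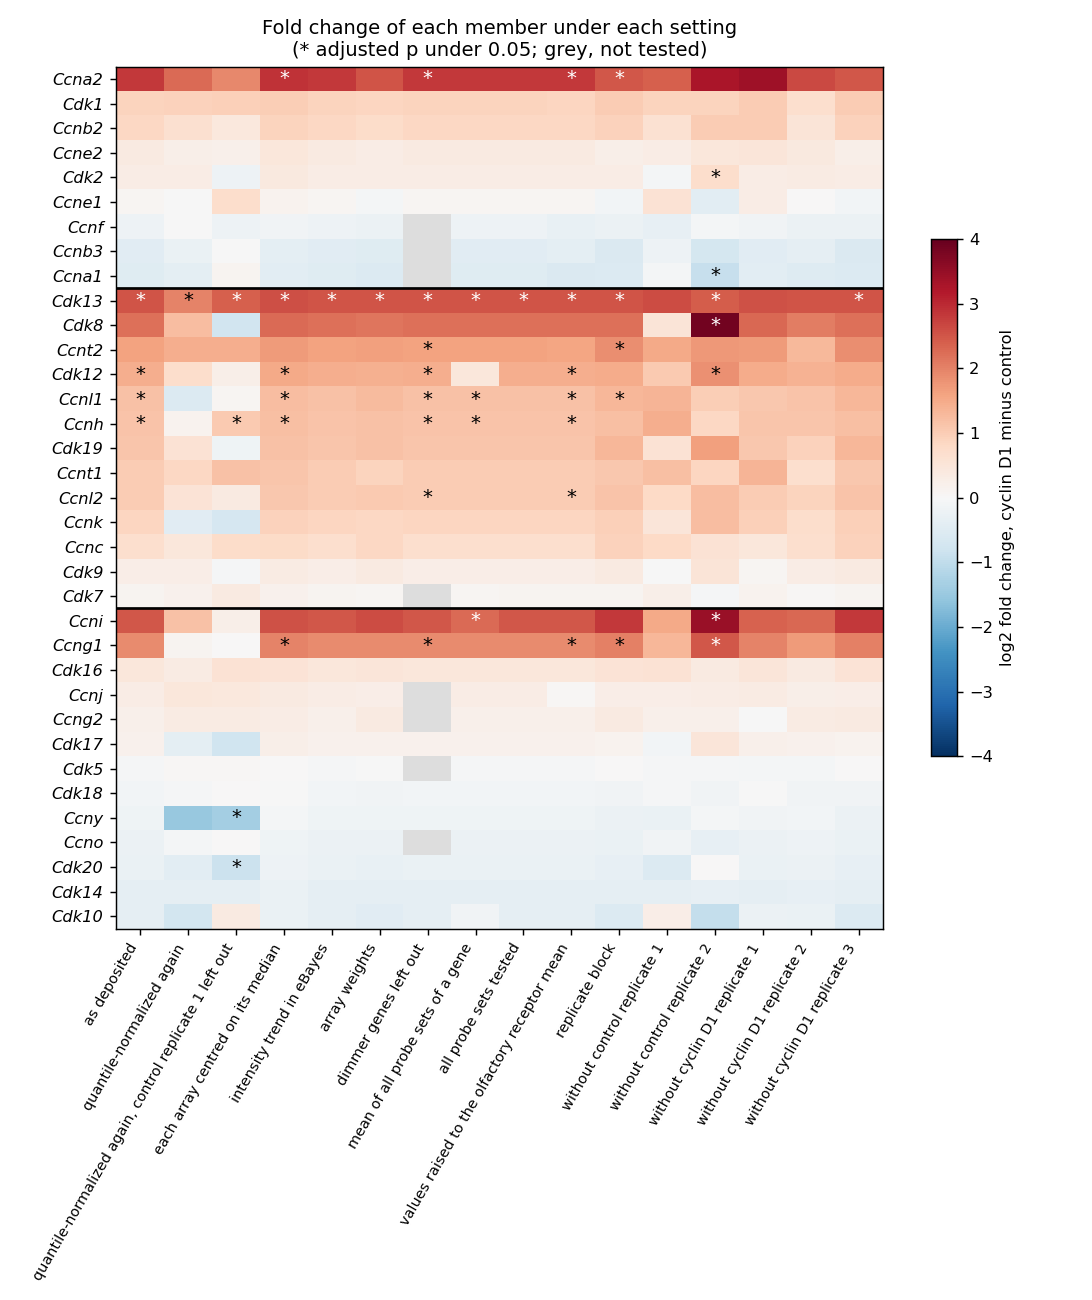
Log2 fold change, cyclin D1 minus control (colour scale), of each measured member (rows, in the groups cell-cycle, transcriptional and atypical from top to bottom) under the deposited scale and 15 alternative settings (columns), with stars where the adjusted p was under 0.05. Cdk13 carries a star under 12 alternatives, Ccnl1 and Ccnh under 5 each and Cdk12 under 4.

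Of 17 measured genes for activation of the cell-cycle kinases and its transcriptional control 1 was higher and 0 lower, a share near the 5.38% of all genes called higher, with a median of 0.26. Cks2, a small subunit that docks substrates to CDK1, read 4.69 ± 0.26 (SD, n = 3) in cyclin D1 glands, against 3.34 and 2.82 in controls (log2 1.61, limma adjusted p = 0.0294). Its relative Cks1b differed by 2.26 (SE 0.49, limma adjusted p = 0.0607), and the MuvB subunit genes Lin54 and Lin9 by 1.61 and 1.38, none of which passed. Renormalized, Cks2 differed by 1.18 without passing.

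Of 23 measured genes of cyclin destruction 7 were higher and 0 lower, with a median of 0.53. Those with the smallest p were Ube2d1, a ubiquitin-conjugating enzyme (log2 1.65, limma adjusted p = 0.0165), Cdc27 and Anapc4 of the anaphase-promoting complex (2.05 and 1.29) and Cul1, the scaffold of SCF ligases (1.41, but -0.23 after renormalization). After renormalization 0 of the 23 passed. The 7 stand beside 5.38% of all genes called higher, with 13.4% in the second brightest decile and 36% in the brightest. The part of expression level in these calls was not tested.

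Partners of the transcriptional kinases included 3 of 19 measured genes that were higher and 0 lower, with a median of 0.29, or 0.14 after renormalization. Over all genes 5.38% were called higher, and in the brightest decile 36%. Aff4, the scaffold of the super elongation complex that carries P-TEFb, read 5.99 ± 0.24 (SD, n = 3) in cyclin D1 glands, against 4.07 and 4.26 in controls (log2 1.82, limma adjusted p = 0.0170). After renormalization 0 of the 19 passed, and Aff4 differed by 0.44 (adjusted p = 0.298). Gtf2h1, a TFIIH subunit, was higher by 1.73 (limma adjusted p = 0.0258), or 1.31 renormalized (0.0642). Supt5, an elongation factor that CDK9 phosphorylates, was higher by 1.03 (limma adjusted p = 0.0448), or 0.75 renormalized (0.0782). Med13, which tethers the CDK8 module to Mediator, differed by 2.70 (SE 0.55, limma adjusted p = 0.0538). Of 16 measured relatives and partners of the atypical members 0 passed, with a median of -0.06, and those with the smallest p were Cdkl1 (-0.51), Cables2 (-0.66), Cdk5rap2 (0.39) and Cdkl4 (-0.33).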

How the data were processed

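Per the submitters' processing notes, the authors made the deposited log2 values, 1 per probe set, with Affymetrix Expression Console 1.1 and RMA; the label protocol names Mouse Gene 1.0 ST arrays. Base 2 was taken from the range of the values (0.830 to 12.9). Detection calls and raw intensities were not used here. The precision is limited by the number of arrays, 3 and 2. Of 35556 probe sets, 21789 were paired with 1 symbol, 1621 with several and 12146 with none. The probe set with the highest mean represented each of 19938 genes.

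Groups followed the sample titles, and limma 3.58.1 (R 4.3.3) tested their difference (3 residual and 2.39 prior degrees of freedom), allowing either direction. Fits were checked on simulated data. Intervals are 95%. The floor is the mean of 1016 olfactory receptor genes per array, 1.97 to 2.24 on the cyclin D1 arrays and 2.52 and 2.38 on the controls. A gene at or below it on all arrays of its dimmer group is given as a bound. The 5 mice are separate animals per the series' design text. Members, groups of members, marker lists and motifs were chosen with earlier results of these data known; all members and, in each pathway list, the 4 genes with the smallest p are named by rule. Of 131 different names in 13 lists 10 were not matched. Alternatives were renormalization (also without control 1), median centring, an intensity trend, array weights, a filter that drops dim genes, averaged probe sets, all probe sets, values raised to the floor, a replicate block and each array left out.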

Additional observations from a re-analysis of the deposited data

Results flagged for a closer look

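Probe sets of member genes outside the comparison also carried signal above the controls. A probe set annotated to both Cdk8 and the ribosomal RNA gene Rn28s1 read 12.0, 12.3 and 12.2 in cyclin D1 glands, against 9.89 and 9.66 in controls, a log2 difference of 2.40. It cannot be assigned to either gene. The second Ccni probe set differed by 2.02, with all 3 cyclin D1 values above both controls.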

How the results depend on the processing

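Values below are log2 differences or counts of genes past the threshold in limma fits. Renormalized, 51 genes were higher and 21 lower, 1 member (Cdk13) was higher, the transcriptional median was 0.55, and signs turned for Ccne1 (-0.029), Ccnk (-0.44), Ccnl1 (-0.56), Cdk5 (0.058) and Cdk17 (-0.39). With control 1 also left out there, 555 genes stood higher and 894 lower, 2 members were higher (Ccnh, Cdk13) and 2 lower (Ccny, Cdk20), and the medians were 0.20 (cell-cycle) and 0.36 (transcriptional). Signs there turned for Ccna1 (0.11), Cdk2 (-0.20), Ccnk (-0.68), Cdk8 (-0.75), Cdk9 (-0.037), Cdk19 (-0.18), Ccno (0.015), Cdk5 (0.054), Cdk10 (0.36), Cdk17 (-0.80) and Cdk18 (0.028). An intensity trend left 622 genes higher and array weights 263 higher and 4 lower, each with 1 member (Cdk13), and weights turned Ccne1 (-0.070). Testing all probe sets left 1 member. Dropping dimmer genes left 9969 genes to fit and adjust over, 27 members among them. Of these genes 1457 were higher and 56 lower, with 8 members higher and a cell-cycle median of 0.59. Values raised to the floor gave 7 members. In that fit 7549 genes had an unadjusted p under 0.05, against 5244 on the deposited scale. Median centring turned Cdk5 (0.025). The replicate block gave 1137 genes higher and 10 lower, with 5 members higher (Ccna2, Ccnl1, Ccnt2, Cdk13, Ccng1), and turned Ccne1 (-0.10). Same-numbered arrays had deviations correlated at -0.026 and 0.126. With 2 controls, the deviations of control 1 mirror those of control 2, so these values cannot decide whether same-numbered arrays belong together. The causes were not tested.

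Leaving out 1 array gave 0 to 1365 genes higher, 0 to 1063 lower, 0 to 6 members higher and 0 to 1 lower, with medians of 0.25 to 0.46 (cell-cycle), 0.81 to 1.23 (transcriptional) and -0.07 to 0.01 (atypical). Limma called 0 genes without control 1, cyclin D1 replicate 1 or cyclin D1 replicate 2, where 4973, 3568 and 3491 had an unadjusted p under 0.05. Where 1 control is left out, the lone control is assumed to vary like the cyclin D1 group. Without cyclin D1 replicate 3, 1 member passed (Cdk13), and without control 2, Cdk2, Cdk8, Cdk12, Cdk13, Ccng1 and Ccni were higher and Ccna1 lower. Differences that turned ranged over -0.076 to 0.70 (Cdk2), -0.0040 to 0.51 (Cdk9), -0.96 to 0.26 (Cdk10), -0.12 to 0.48 (Cdk17), -0.44 to 0.59 (Ccne1), -0.051 to 0.25 (Cdk7), -0.56 to 0.012 (Cdk20) and -0.027 to 0.35 (Ccng2). Of the 35 members 19 kept their sign under every alternative run. With 2 controls, 1 array can decide a call.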
